A study of Mus musculus with 44 samples.

Results

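The genes described here are 10 that carry out or feed steroid hormone synthesis: *Scarb1*, *Star*, *Cyp11a1*, *Fdx1*, *Fdxr*, *Hsd3b1*, *Cyp19a1*, *Por*, *Hsd17b1* and *Hsd17b7*. They were chosen by name and function, with earlier results of these data known. All 10 were found by symbol among the 25865 genes with values in the RNA-seq table. Primary mouse granulosa cells, the somatic cells that surround the oocyte, were treated for 4 h with GDF9, a TGFβ-family growth factor secreted by the oocyte, or with vehicle. The cells came from 3- to 4-week-old females of mixed C57BL/6J × 129S5/SvEvBrd background that had been primed with PMSG, a gonadotropin that drives follicle growth, and they were pooled across mice and cultured for 4 d before treatment. 2 knock-in lines were used, and both treatments were given to each. Smad2 HA/+ mice carry 1 copy of *Smad2* with an HA tag at the C-terminus, and no mice with 2 tagged copies were obtained. Smad3 PA/PA mice carry a PA tag at the N-terminus of SMAD3 on both copies. RNA-seq had 2 libraries per treatment. Smad3 PA/PA cells served for RNA-seq according to the study's methods, as the sample labels give no genotype. CUT&RUN, which releases DNA fragments near an antibody's target, was done with 2 replicates per treatment for H3K27ac, HA, SMAD2 and SMAD3 in Smad2 HA/+ cells and for H3K27ac, PA, SMAD2 and SMAD4 in Smad3 PA/PA cells. SMAD2 and SMAD3 are the proteins that carry the GDF9 signal into the nucleus, SMAD4 is their partner, and H3K27ac marks active promoters and enhancers.

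Steroid synthesis starts when SCARB1 takes up cholesterol from lipoproteins and STAR moves it into the mitochondrion. There CYP11A1 cuts the side chain to give pregnenolone, with electrons passed from FDXR through FDX1. HSD3B1 turns pregnenolone into progesterone, the main steroid of granulosa cells after ovulation. CYP19A1, the aromatase, makes estrogens and takes its electrons from POR, and HSD17B1 reduces estrone to estradiol. HSD17B7 acts on estrone too and also serves in cholesterol synthesis.

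The RNA libraries held 8827825 to 11416005 reads in genes. Libraries of a group differed beyond sampling noise in a chi-square test over genes (chi-square divided by its degrees of freedom was 1.97 with GDF9 and 1.31 with vehicle). The study's methods speak of pooled biological replicates but leave unclear whether each library had its own pool of mice, so p-values measure the spread between these libraries. The granulosa marker *Inha* lay between 13383 and 14887 normalized counts, which are the reads of a gene divided by 1 size factor per library. *Fshr* was lower, at 75.8 to 89.6, and *Amh* had few reads. The 4 theca markers summed to 178 to 230.4 normalized counts, nearly all of it *Ptch1*, while *Insl3* was at 0 and the theca enzyme *Cyp17a1* at 0 to 2.01. The 4 endothelium markers summed to 20.1 to 39.9, the leukocyte markers to 59.7 to 82.2, the oocyte markers to 22.3 to 26.6 and the stroma markers to 1463 to 1519. The 4 surface epithelium markers summed to 864 and 911 with GDF9 and to 799 and 838 with vehicle, and their part in the results was not tested. In bulk samples, fewer cells of a type and less RNA per cell cannot be told apart.

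9 of the 10 genes were expressed, and they spanned a wide range. Per kilobase of exon, *Cyp11a1* stood at rank 3 of 23436 genes with a position, at a mean of 21350 normalized counts per kb over the 4 libraries. *Hsd3b1* followed at 7280 per kb (rank 24) and *Scarb1* at 3508 per kb (rank 97). *Star* at 1924 per kb (rank 224) and *Fdx1* at 1806 per kb (rank 248) were near each other. *Hsd17b1* stood at 1171, *Fdxr* at 1056 and *Por* at 1034 per kb, and *Hsd17b7* was lower, at 306 per kb (rank 2284). *Cyp19a1* had 2 reads in each of the 4 libraries and a level of 0.817 per kb, so aromatase RNA was hardly detected at this depth and no change could be tested. RNAs for side chain cleavage and progesterone formation were thus among the most abundant of these cultures, while that of aromatase was near the limit of detection.

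Does 4 h of GDF9 change this set? Of the 9 genes that passed the filter of a mean of at least 10 normalized counts, 3 rose and 0 fell. *Hsd17b1* rose by 22.1%, *Scarb1* by 14.6% and *Fdxr* by 14.0%. Across all 12597 tested genes, 2.44% were called higher and 0.707% lower, where a call needed an adjusted p under 0.05 in limma and a log2 fold change beyond 0.18. The median log2 fold change was 0.05 over the 9 genes and -0.0064 over all tested genes. The genes and the lists below were chosen with earlier results of these data known, so their counts are descriptions only. The changes were small, and each is given below with its libraries, following the order of the pathway.

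For cholesterol entry, *Scarb1* measured 9543 and 9354 normalized counts with GDF9 and 8200 and 8282 with vehicle. Both GDF9 libraries lay above both vehicle libraries. The log2 fold change of value + 1 was 0.20 (SE 0.03, limma adjusted p = 0.000253). This was close to the limit of 0.18, and with 1 library left out the fold change ran from 0.183 to 0.212. *Star*, the carrier into mitochondria, measured 7776 and 8073 with GDF9 and 7671 and 7618 with vehicle. The groups did not overlap, yet the log2 difference of 0.05 (SE 0.03) did not pass the test (limma adjusted p = 0.51).

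At the side chain cleavage step, *Cyp11a1* measured 45753 and 46036 normalized counts with GDF9 and 44250 and 44984 with vehicle. The log2 difference was 0.04 (SE 0.03, limma adjusted p = 0.53). Of the enzymes that supply its electrons, the reductase was called and the ferredoxin was not. *Fdxr*, the reductase, measured 2162 and 2221 with GDF9 against 1885 and 1959 with vehicle, a log2 fold change of 0.19 (SE 0.05, limma adjusted p = 0.0112). This value lay just over the limit of 0.18, and *Fdxr* was not called with no filter on low values (limma adjusted p = 0.0744), by DESeq2 (adjusted p = 0.22), without GDF9 replicate 2 (log2 fold change of 0.17) or without vehicle replicate 1 (log2 fold change of 0.16, limma adjusted p = 0.275). *Fdx1*, the ferredoxin that takes electrons from it, measured 5234 and 5567 with GDF9 against 5824 and 5796 with vehicle. All GDF9 values of *Fdx1* were below the vehicle values, with a log2 difference of -0.11 (SE 0.04) that did not pass the test (limma adjusted p = 0.13). The difference rested on the GDF9 libraries, at -0.06 without GDF9 replicate 1 and -0.15 without GDF9 replicate 2 (limma adjusted p = 0.00207, under the fold limit).

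The progesterone-forming *Hsd3b1* measured 13216 and 13703 with GDF9 and 13403 and 13693 with vehicle. Its paralog *Hsd3b6* had 1 to 4 reads a library. How reads that fit both genes were counted is not given in the sources used here, so the level of *Hsd3b1* is uncertain to that extent. Its groups overlapped, and the log2 difference was -0.0095 (SE 0.03, limma adjusted p = 0.93). *Por*, the reductase that serves aromatase and other microsomal P450 enzymes, measured 2865 and 2871 with GDF9 against 2818 and 2727 with vehicle. The log2 difference of 0.05 (SE 0.04) did not pass the test (limma adjusted p = 0.63). Of the enzymes that act on estrone, *Hsd17b1* measured 1732 and 1717 with GDF9 and 1422 and 1403 with vehicle. This was the largest difference among the 9 genes, a log2 fold change of 0.29 (SE 0.05, limma adjusted p = 0.000166). The SDs were 10.4 and 13.6 normalized counts in the GDF9 and vehicle groups (n = 2 each), and SDs of 2 libraries measure spread weakly. *Hsd17b7* measured 1537 and 1447 with GDF9 and 1635 and 1554 with vehicle, a log2 difference of -0.10 (SE 0.05, limma adjusted p = 0.36).

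**Figure D1:**
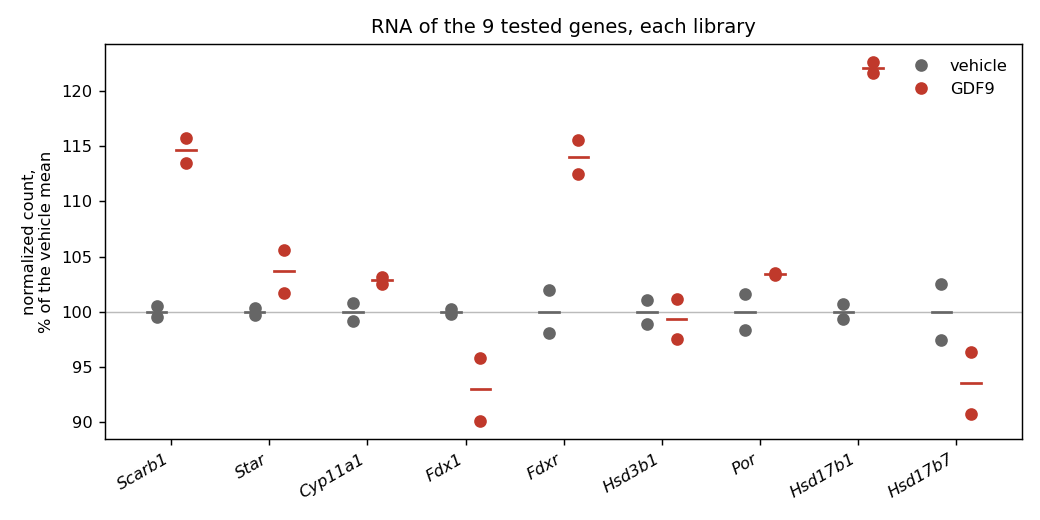
Normalized counts of the 9 tested genes in each RNA-seq library, as a percentage of that gene's vehicle mean (y axis, linear), in the order of the pathway; points are libraries, bars are means of 2. The GDF9 points of *Hsd17b1*, *Scarb1* and *Fdxr* lie well above their vehicle points, those of *Fdx1* and *Hsd17b7* lie below, and those of *Hsd3b1* overlap.

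Both GDF9 libraries were above both vehicle libraries in 6 of the 9 genes and below them in 2. Among all tested genes, 22.0% were above in this way and 23.2% below. Separation of 2 libraries from 2 was thus common in the whole table. *Scarb1* and *Hsd17b1* were called in all 8 other fits to the 4 libraries, which changed the offset, filter, scaling, test or block, and in the 4 fits that left out 1 library, where the lone sample is assumed to vary like the other group.

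The other enzymes and carriers of the pathway were compared as a list. Of 33 listed, 31 were in the table and 25 were tested, of which 0 rose and 1 fell, with a median log2 fold change of 0.02. The shares of all tested genes were 2.44% higher and 0.707% lower. The gene that fell was *Akr1c14*, which codes for a 3α-hydroxysteroid dehydrogenase that breaks down progestins and androgens. It measured 628 and 654 with GDF9 and 843 and 771 with vehicle, a log2 fold change of -0.33 (SE 0.06, limma adjusted p = 0.00133). Among the most abundant of the others, *Soat1*, which esterifies cholesterol for storage, differed by -0.04 on the log2 scale (SE 0.04) and the cytochrome b5 genes *Cyb5a* and *Cyb5b* by 0.02 (SE 0.04) and -0.05 (SE 0.04). *Pgrmc1*, a heme-binding partner of P450 enzymes, had a log2 difference of -0.14 (SE 0.04, limma adjusted p = 0.0527). *Akr1c18*, which inactivates progesterone, was below the filter, at 6.04 and 2.90 with GDF9 against 13.8 and 11.5 with vehicle.

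Regulators of these genes moved in both directions. Of 18 listed, 16 were tested, 2 rose and 3 fell, with a median log2 fold change of -0.02. Among all tested genes, 2.44% were called higher and 0.707% lower. The list was chosen with earlier results of these data known, so its count is a description only. *Nr4a1*, an orphan nuclear receptor known to act on steroid gene promoters, measured 353 and 379 with GDF9 and 206 and 203 with vehicle, a log2 fold change of 0.84 (SE 0.09, limma adjusted p = 2.22e-07). The estrogen receptor *Esr2* rose by 0.33 (SE 0.08, limma adjusted p = 0.0207). *Nr5a2*, a nuclear receptor needed for ovulation and luteinization, measured 829 and 797 with GDF9 and 1000.3 and 983 with vehicle, a log2 fold change of -0.29 (SE 0.06, limma adjusted p = 0.00189). Its relative *Nr5a1* did not pass, at 0.06 (SE 0.05, limma adjusted p = 0.61), nor did *Gata4* at 0.01 (SE 0.04), *Sp1* at -0.08 (SE 0.06) or *Prkar1a* at -0.06 (SE 0.04). The prolactin receptor *Prlr* fell by 0.34 (SE 0.07, limma adjusted p = 0.00158) and *Prkar2b*, a regulatory subunit of protein kinase A, fell by 0.30 (SE 0.05, limma adjusted p = 0.000195).

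Of the 8 granulosa markers, 7 were tested, 2 rose and 0 fell, against 2.44% and 0.707% of all tested genes. The markers that rose were *Esr2* and *Fst*, the activin-binding follistatin, with a log2 fold change of 0.37 (SE 0.06, limma adjusted p = 0.000147). *Inhba* had a log2 difference of -0.13 (SE 0.03, limma adjusted p = 0.0153), under the fold limit, and *Inha* (0.09, SE 0.03), *Foxl2* (-0.11, SE 0.06) and *Amhr2* (0.06, SE 0.07) did not pass. Of the luteal markers, 2 of 4 were tested and 1 fell, *Prlr* as above, while the LH receptor *Lhcgr* was at 0 to 1.94. None of the tested theca (1 of 4), stroma (3 of 4), endothelium (1 of 4), leukocyte (2 of 4), oocyte (1 of 4) or surface epithelium (4 of 4) markers was called.

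**Figure D2:**
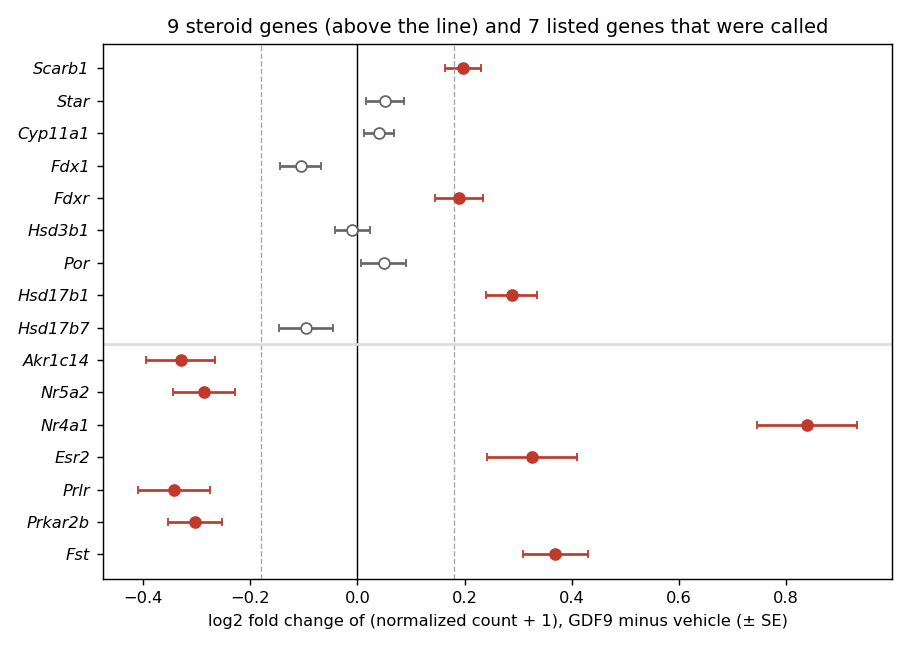
Log2 fold changes of normalized count + 1, GDF9 minus vehicle, with their SE (x axis), for the 9 tested steroid genes above the line and the 7 called genes of the other lists below it. Filled red points were called and dashed lines mark the fold limit of 0.18; *Nr4a1* at 0.84 lies far outside the range of the steroid genes, which runs from -0.11 to 0.29.

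Peaks near the genes were compared next. A region here is a union of overlapping peaks that holds a peak of both replicates. H3K27ac separated *Cyp19a1* from the rest. In both lines and both treatments, 9 of the 10 genes had an H3K27ac region within 20 kb of the gene, and also within 3 kb of a start site, and *Cyp19a1* had no H3K27ac peak within 20 kb in any of the 8 lists. Among the 12288 RNA-tested genes with a position, 91.8% had such a region within 20 kb in Smad2 HA/+ cells with GDF9 and 89.2% with vehicle, and 85.9% and 86.5% in Smad3 PA/PA cells. A region near a gene was therefore the rule, and its absence at *Cyp19a1* accompanied RNA at 2 reads a library.

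The lines differed in what the peak lists hold. H3K27ac peaks of Smad2 HA/+ cells were broad, with medians of 18565 to 29257 bases and 456 to 472 Mb covered, against 2940.5 to 3288 bases and 108 to 130.1 Mb in Smad3 PA/PA cells. Maximum signals of each list were whole multiples of 1 step, which is the signal of 1 overlapping fragment, so peak heights can be read in fragments. The median height of SMAD-family peaks was 10 to 17 fragments in Smad2 HA/+ cells and 3 to 5 in Smad3 PA/PA cells. Because fragments per peak differed this much, heights are compared within a line only.

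H3K27ac of peaks that touch the promoters did not change by the test. Summed signal of peaks within 3 kb of a start site, upstream or downstream, was fitted with limma in each line. Peaks were counted whole, so signal far from the start is included. In Smad2 HA/+ cells these peaks were 281272 to 334076 bases wide at *Star* and 149072 to 156064 at *Hsd17b1*. 0 of 9 genes were called in Smad2 HA/+ cells, where 0.148% of 10779 tested genes were called higher and 1.42% lower, and 0 of 9 in Smad3 PA/PA cells, where 0.0112% of 8902 were called higher and 0.0337% lower. At unadjusted p under 0.05 there were 793 genes in Smad2 HA/+ cells and 171 in Smad3 PA/PA cells, and none of the 9 genes was among them. *Hsd3b1* had the highest ratio for its error in Smad2 HA/+ cells, with signals of 1176440 and 1140090 with GDF9 and 1048190 and 1044520 with vehicle, a log2 ratio of 0.15 (SE 0.05, limma adjusted p = 0.76). *Fdx1* had 0.15 (SE 0.13), *Cyp11a1* 0.11 (SE 0.06) and *Fdxr* 0.08 (SE 0.07), and *Hsd17b7* was lower with GDF9, at -0.17 (SE 0.09). The maximum signal of the peaks was described after values were seen. In Smad2 HA/+ cells, both GDF9 maxima were above both vehicle maxima in 5 of 9 genes and below in 0. Among all genes the shares were 32.5% and 10.3%. In Smad3 PA/PA cells, they were above in 1 of 9 (*Hsd17b7*) and below in 0, against 6.3% and 3.75%.

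For the 2 other genes called in RNA, summed signal of *Hsd17b1* was 908112 and 848266 with GDF9 against 898787 and 852004 with vehicle in Smad2 HA/+ cells, a log2 ratio of 0.0043 (SE 0.07). Signal of *Scarb1* was 583351 and 562402 against 627746 and 528888, a log2 ratio of -0.0086 (SE 0.12). In Smad3 PA/PA cells the replicates were wide apart, since replicate 2 was higher than replicate 1 for 8 of the 9 genes in both treatments. There *Scarb1* measured 17198 and 33662 with GDF9 and 23194 and 28756 with vehicle, a log2 ratio of -0.10 with an SE of 0.57. The fit had no term for replicate, so the difference between replicates counted as spread. The SE of the 9 genes was 0.56 to 0.60 in this line, so a log2 ratio of 1 lay within 2 SE of 0. The median log2 ratio of all tested promoters was -0.07 in Smad2 HA/+ cells and moved to 0.14 when each library was centred on its median, so the ratios above are best read against that shift.

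**Figure D3:**
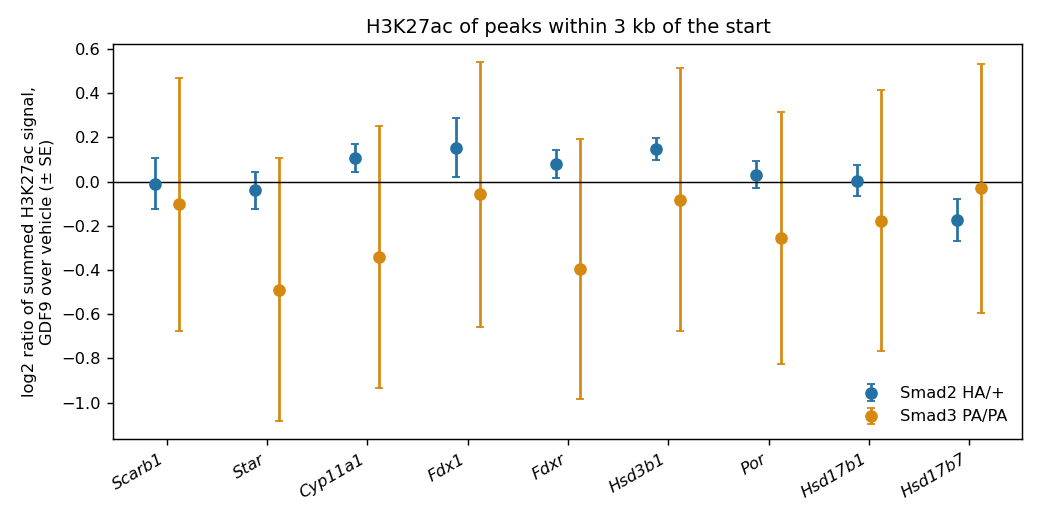
Log2 ratio of the summed H3K27ac signal of peaks within 3 kb of a start site, GDF9 over vehicle, with its SE (y axis), for the 9 genes with such peaks in Smad2 HA/+ (blue) and Smad3 PA/PA (orange) cells. The blue points lie between -0.17 and 0.15, and every orange error bar crosses 0.

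SMAD-family regions were near most of the genes in Smad2 HA/+ cells in both treatments. The IgG libraries were not used here, so background signal in the regions of either line was not assessed. HA, which marks tagged SMAD2, had a region within 20 kb of 9 genes with GDF9 and of 9 with vehicle, against 90.0% and 93.8% of all tested genes. For the SMAD2 antibody the numbers were 10 with GDF9 and 9 with vehicle (80.4% and 87.0% of tested genes), and for SMAD3 they were 9 and 10 (91.4% and 94.9%). *Cyp19a1* was the gene without a region in each case where 1 was missing. The 10 genes had 36 HA regions with GDF9 and 43 with vehicle, a median of 3.0 and 4.5 a gene, against 2.0 for all tested genes in both treatments. *Por* had 7 HA regions in each treatment, the most of the set with GDF9, and *Hsd17b1* also had 7 with vehicle.

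Heights of HA regions put the genes in another order than their RNA levels. The strongest HA region of each gene was taken by the higher of its 2 maxima. The strongest of the set in GDF9-treated cells spanned the start of *Fdxr*, from -2649 to 4816 bases (chr11:115272234-115279699), with 102 and 156 fragments. By the lower of its maxima it stood above or level with 98.2% of the 24635 HA regions. Ordered by the lower maximum, *Por* followed at -1154 to 457 bases (chr5:135687882-135689493) with 71 and 125 fragments. *Star* came next at -2575 to 2125 bases (chr8:25805899-25810599) with 68 and 137. *Fdx1* had 64 and 136 fragments at -2908 to 7617 bases (chr9:51955929-51966454), and *Hsd17b7* had 55 and 90 at -1358 to 1228 bases (chr1:169968013-169970599). These 5 genes stood at the percentiles 92.7 to 98.2.

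The other 4 were lower. *Cyp11a1*, the most abundant RNA of the set, had 32 and 55 fragments at -6840 to 948 bases (chr9:58007831-58015619, percentile 77.7). The highest HA region of *Scarb1* lay past the end of the gene, at 71550 to 74022 bases from its start (chr5:125267072-125269544), with 31 and 37 fragments. That of *Hsd17b1* lay at 2626 to 5116 bases, also past the end of this short gene (chr11:101081037-101083527), with 23 and 60 fragments. *Hsd3b1* had 17 and 36 fragments at 237 to 6628 bases (chr3:98853166-98859557, percentile 42.2), with a scaled signal of 0.825 and 1.595. Another HA region of *Hsd3b1*, at -14161 to -12109 bases, had 1.02 in both replicates, so that it ranks above the first by the lower maximum. Genes called in RNA were thus both at the top of this order (*Fdxr*) and in its lower part (*Scarb1*, *Hsd17b1*).

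Between treatments, the median promoter height differed in the direction of the whole list. Heights were compared as deposited, scaled signal in genes with a promoter peak in all 4 lists of an antibody, a description chosen after values were seen. For HA, both GDF9 lists were above both vehicle lists in 0 of 8 such genes and below in 0, against 18.9% and 1.16% of all genes. For SMAD2 they were above in 4 of 7 (*Fdxr*, *Hsd17b7*, *Hsd3b1*, *Star*) and below in 0, against 26.8% and 0.428%. For SMAD3 they were above in 0 of 9 and below in 5 (*Fdx1*, *Fdxr*, *Hsd17b7*, *Hsd3b1*, *Star*), against 6.11% and 34.0%. The median log2 ratio of GDF9 over vehicle was 0.32 for HA, 0.37 for SMAD2 and -0.22 for SMAD3 over these genes, and 0.25, 0.32 and -0.17 over all genes. The medians of the steroid genes had the sign of the whole list for each antibody. *Cyp11a1* was the exception in sign for SMAD2 (-0.02) and SMAD3 (0.002).

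At *Star*, SMAD2 signal was 1.73 and 1.77 with GDF9 and 1.45 and 0.62 with vehicle, and SMAD3 signal was 2.04 and 2.28 against 3.07 and 2.67. At *Fdxr*, SMAD2 signal was 1.93 and 1.64 with GDF9 and 1.60 and 1.16 with vehicle, and SMAD3 signal was 2.44 and 2.80 against 3.51 and 3.45. In scaled signal, the antibodies thus went in opposite directions at the same promoters, as they did in the list as a whole. The SMAD2 side depends on scaling. 1 fragment counted 0.0168 in vehicle replicate 2 and 0.0314 to 0.0393 in the other SMAD2 lists of Smad2 HA/+ cells. In fragments, SMAD2 heights at *Star* were 44 and 52 with GDF9 against 46 and 37 with vehicle. At *Fdxr* they were 49 and 48 against 51 and 69. SMAD3 heights in fragments were 52 and 57 against 76 and 90 at *Star*, and 62 and 70 against 87 and 116 at *Fdxr*. Heights in fragments are not adjusted for the depth of a list. The 95th percentile of SMAD3 peak heights was 45 and 46 fragments with GDF9 and 52 and 65 with vehicle. For SMAD2 it was 28 and 29 with GDF9 and 35 and 34 with vehicle. Within 3 kb of the start of *Hsd17b1*, SMAD3 heights were 13 and 15 fragments with GDF9 and 44 and 16 with vehicle. HA gave no peak and 60 with GDF9, and 11 and 50 with vehicle. The 44 and 60 are maxima of regions at 2848 to 5454 and 2626 to 5116 bases, past the end of the gene. The window meets these peaks in some lists only, so its heights cannot compare replicates or treatments at the start. Within 3 kb of the start of *Scarb1*, HA heights were 22 and 17 with GDF9 and 23 and 13 with vehicle.

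**Figure D4:**
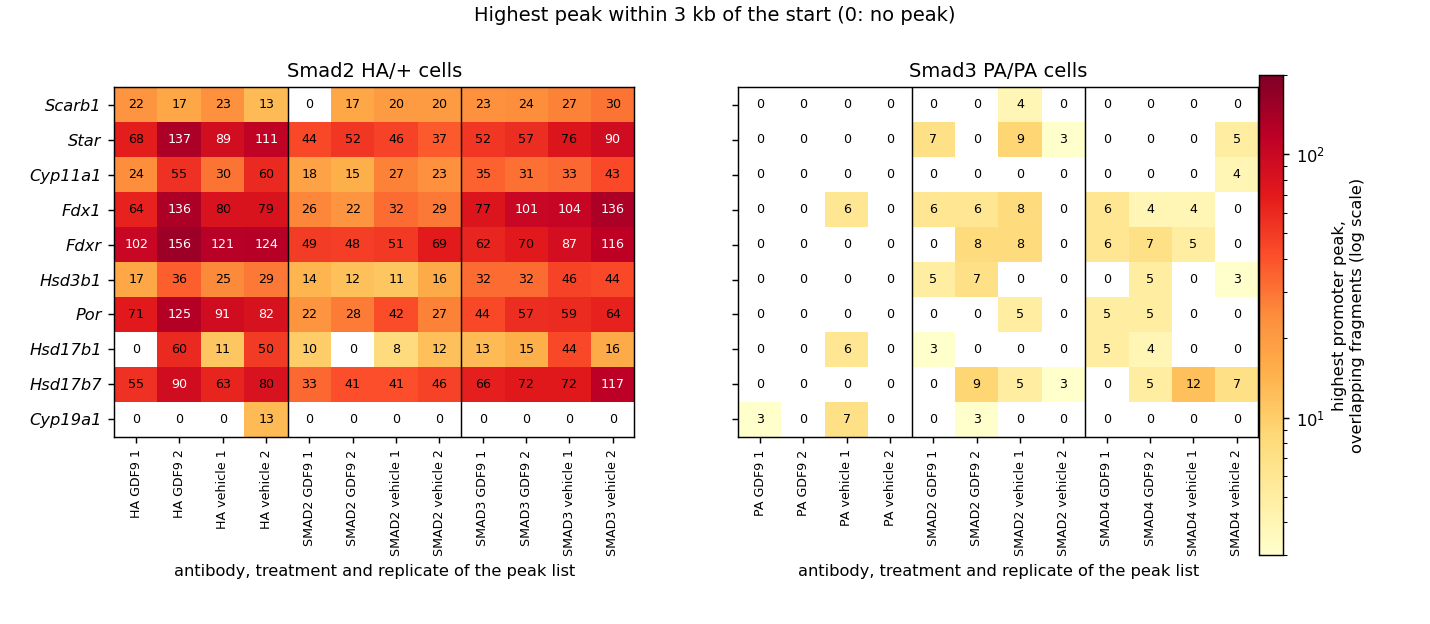
Height of the highest SMAD-family peak within 3 kb of a start site, in overlapping fragments (number and log color scale), for the 10 genes (rows) in each peak list (columns) of Smad2 HA/+ cells (left) and Smad3 PA/PA cells (right); 0 means no peak. *Fdxr*, *Star*, *Fdx1*, *Por* and *Hsd17b7* form the high rows on the left, the right panel holds no value above 12, and *Cyp19a1* is nearly empty in both.

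In Smad3 PA/PA cells SMAD-family regions near these genes were few and shallow. PA, which marks tagged SMAD3, had a region within 20 kb of 0 genes with GDF9 and of 2 with vehicle (*Hsd3b1* and *Fdx1*), against 7.95% and 6.85% of tested genes. Single lists did hold PA peaks near 5 to 8 of the genes, and overlap between replicates was limited to the *Hsd3b1* and *Fdx1* regions of vehicle. SMAD4 had a region near 3 genes with GDF9 (*Cyp11a1*, *Fdx1*, *Fdxr*) and near 4 with vehicle (*Hsd3b1*, *Fdx1*, *Hsd17b7*, *Por*), against 39.3% and 37.1%. SMAD2 had a region near 5 genes with GDF9 (*Star*, *Hsd17b1*, *Hsd3b1*, *Fdx1*, *Por*) and near 0 with vehicle, against 25.7% and 3.46%. The vehicle number rests on a short list, since vehicle replicate 2 of SMAD2 held 23082 peaks and the other SMAD2 lists of this line 78699 to 81283. Vehicle replicate 1 alone had SMAD2 peaks near 10 of the 10 genes and vehicle replicate 2 alone near 5, so a lack of shared regions with vehicle and the shortness of that list cannot be told apart.

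Of the 9 SMAD2 and SMAD4 regions of GDF9-treated Smad3 PA/PA cells near the genes, 7 lay over regions of all 6 SMAD-family groups of Smad2 HA/+ cells, with GDF9 and with vehicle. The remaining pair were a SMAD2 region upstream of *Star* and 1 upstream of *Por*. The share of such overlaps near other genes was not computed. Each SMAD-family group of Smad2 HA/+ cells had a region within 20 kb of 80.4% to 94.9% of tested genes, so overlap is common. No HA region of GDF9-treated cells near these genes met a PA region of GDF9-treated cells. To show what lies under places found in both lines, sequence is given for 4 of the 7 places, chosen after values were seen: the starts of *Fdxr* and *Fdx1*, where a region of Smad3 PA/PA cells spans the start, and the centers of the *Hsd3b1* and *Cyp11a1* regions. The first pair are bases before the start from RefSeq promoters (GRCm38.p6), cut so that no transcribed base is included, and the others come from the GRCm38 genome. All are written 5′ to 3′ on the strand of the gene, and capitals mark CAGAC, the short motif that SMAD3 and SMAD4 are known to bind, or AAGGTCA, a motif of NR5A receptors, on either strand.
Fdxr, chr11:115277051-115277219, minus strand, -169 to -1 from the start: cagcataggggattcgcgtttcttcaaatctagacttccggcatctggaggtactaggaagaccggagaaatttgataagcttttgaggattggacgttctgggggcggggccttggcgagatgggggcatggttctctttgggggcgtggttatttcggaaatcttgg
Fdx1, chr9:51963603-51963852, minus strand, -306 to -57 from the start: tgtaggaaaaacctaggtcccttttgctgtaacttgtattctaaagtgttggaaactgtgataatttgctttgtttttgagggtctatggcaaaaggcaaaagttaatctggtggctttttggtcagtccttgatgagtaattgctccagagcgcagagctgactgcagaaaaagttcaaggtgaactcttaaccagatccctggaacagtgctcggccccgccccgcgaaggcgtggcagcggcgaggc
Hsd3b1, chr3:98857064-98857363, minus strand, 2431 to 2730 from the start: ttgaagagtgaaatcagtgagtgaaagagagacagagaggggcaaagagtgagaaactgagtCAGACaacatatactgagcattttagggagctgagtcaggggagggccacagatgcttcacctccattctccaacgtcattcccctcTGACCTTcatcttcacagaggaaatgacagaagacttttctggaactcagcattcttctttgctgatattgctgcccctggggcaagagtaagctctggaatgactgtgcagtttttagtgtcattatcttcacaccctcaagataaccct
Cyp11a1, chr9:58009297-58009596, plus strand, -5374 to -5075 from the start: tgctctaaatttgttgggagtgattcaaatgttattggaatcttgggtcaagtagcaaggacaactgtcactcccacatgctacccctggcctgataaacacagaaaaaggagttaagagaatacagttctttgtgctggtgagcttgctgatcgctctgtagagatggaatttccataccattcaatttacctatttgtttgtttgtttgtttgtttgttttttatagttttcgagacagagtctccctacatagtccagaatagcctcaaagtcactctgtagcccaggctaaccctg

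None of the 4 stretches overlapped an annotated exon. The *Hsd3b1* stretch is intronic, and that of *Cyp11a1* lies in an intron of a longer annotated form and before the start of the main transcript. The *Hsd3b1* stretch held 1 match to CAGAC and 1 to AAGGTCA, and the other 3 held 0 of either. The centers of 2 further places of the 7, the SMAD2 region within *Por* and the SMAD4 region in *Fdx1*, also held 0 of either and are not printed. CAGAC was in 49.4% of 300-base centers of all 24635 HA regions of GDF9-treated cells, in 42.2% of the 250 bases before the start in 32817 promoters and in 31.7% of stretches of 169 bases of them. AAGGTCA was in 7.19%, 4.08% and 2.85% of the same windows. *Hsd17b1* and *Scarb1*, the other called genes, had no entry among the promoters, nor had *Star*. The center of the region past the end of *Hsd17b1* overlaps untranslated sequence outside this gene and is not shown.

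At the start of *Fdxr*, SMAD4 peaks of 6 and 7 fragments with GDF9 formed a region from -591 to 359 bases (chr11:115276691-115277641), while vehicle had 5 and no peak. The start of *Fdx1* had SMAD2 peaks of 6 and 6 fragments with GDF9 in a region from -913 to 221 bases (chr9:51963325-51964459), and a peak of 8 in vehicle replicate 1. In *Hsd3b1*, the SMAD2 region lay from 2029 to 3133 bases (chr3:98856661-98857765), with 5 and 7 fragments and no peak over it in either vehicle list. The SMAD4 region before *Cyp11a1*, from -6103 to -4347 bases (chr9:58008568-58010324), had 6 and 6 fragments with GDF9 and no peak in either vehicle list. With vehicle, the highest was the SMAD4 region over the start of *Hsd17b7*, from -843 to 375 bases (chr1:169968866-169970084), with 12 and 7 fragments, where GDF9 lists had no peak and 5. These heights are given as a description, with no test.

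Past the end of *Hsd17b1*, the gene with the largest RNA difference, a SMAD2 region of GDF9-treated Smad3 PA/PA cells lay at 3705 to 4710 bases (chr11:101082116-101083121) with 4 and 5 fragments, inside the strongest HA region within 20 kb of the gene. The center of this SMAD2 region overlaps untranslated sequence of another annotated gene. Within *Por*, a SMAD2 region at 33025 to 33502 bases (chr5:135722061-135722538) had 8 and 7 fragments. *Scarb1* had no SMAD2, SMAD4 or PA region in Smad3 PA/PA cells. In the line whose RNA was sequenced, the genes called in RNA thus had SMAD4 at the start (*Fdxr*), SMAD2 past the end (*Hsd17b1*) or no region (*Scarb1*). Among all tested genes, 39.3% had a SMAD4 region and 25.7% a SMAD2 region within 20 kb with GDF9. Single GDF9 lists also held SMAD2 peaks near *Fdxr* (7 and 8 fragments) and SMAD4 peaks near *Hsd17b1* (8 and 5) and *Scarb1* (6 in replicate 1). No pattern particular to a gene is read from such shallow peaks.

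**Figure D5:**
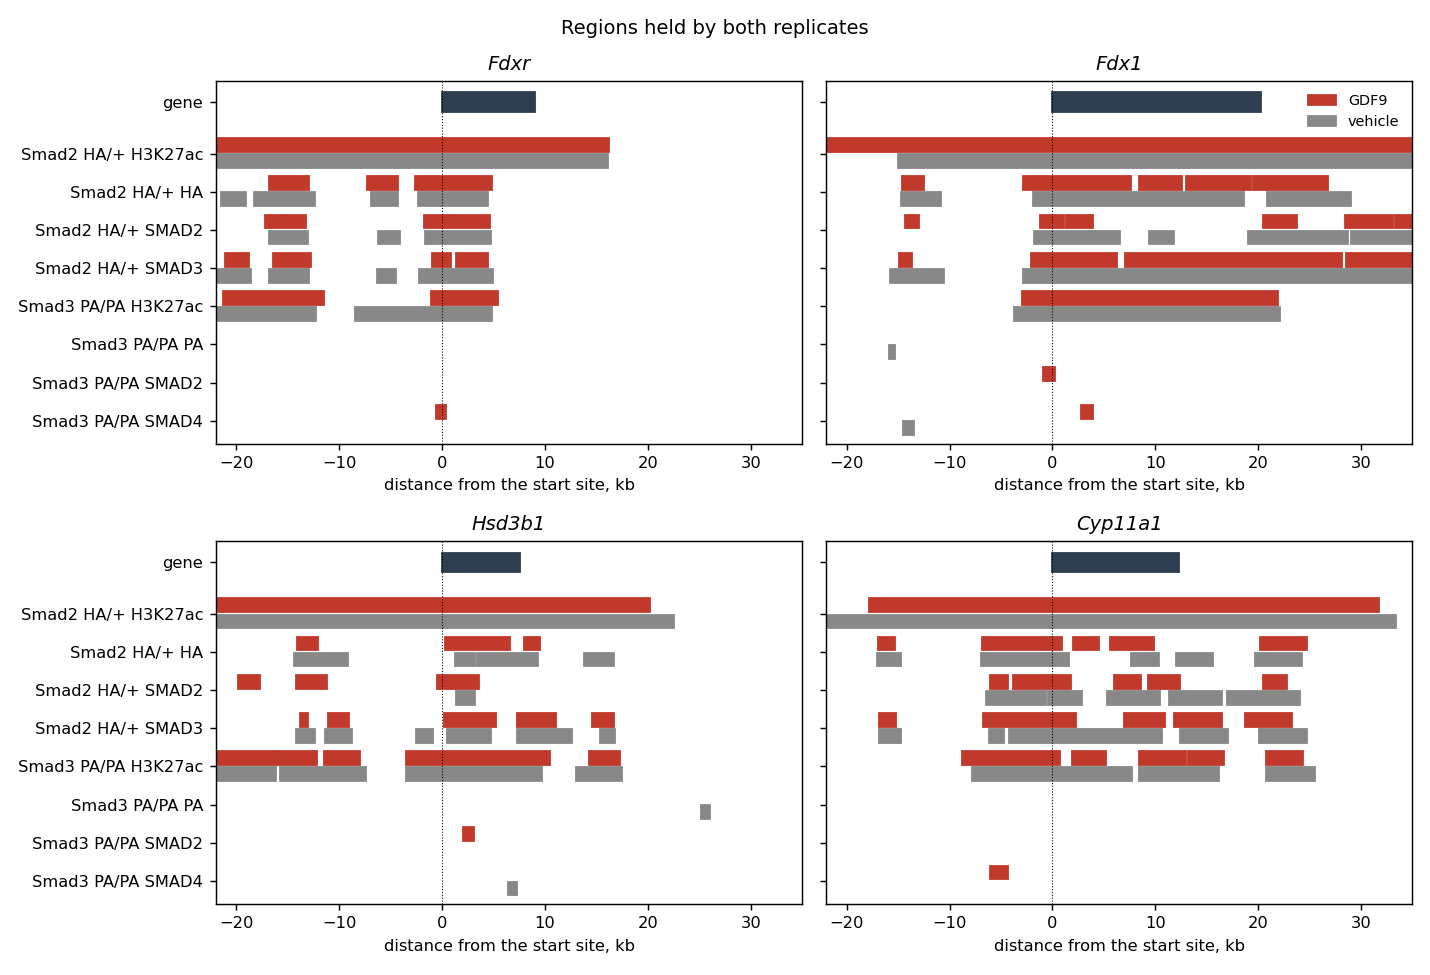
Regions held by both replicates around *Fdxr*, *Fdx1*, *Hsd3b1* and *Cyp11a1*, by distance from the start site in kb (x axis, along the gene), for each line and antibody (rows); red bars are GDF9, gray bars vehicle, the dark bar is the gene, and bars that reach the edge go on beyond it. H3K27ac and SMAD-family regions of Smad2 HA/+ cells cover the starts in both treatments, except at *Hsd3b1*, where HA, SMAD3 and vehicle SMAD2 regions lie beside the start, and Smad3 PA/PA SMAD regions are few and narrow.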

How the data were processed

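RNA-seq values are normalized counts deposited by the authors, a signal equal to gene reads over a size factor set for each library (STAR 2.7.11b on mm10, featureCounts 2.1.1, DESeq2 1.48.2). Whole reads were recovered (tolerance 0.05) for 100% of values. Of 27179 entries, 1314 had no symbol or no values (0.311% of summed means). A further 3 columns carried no header and stayed unused. Peak lists hold total and maximum signal of SEACR peaks, called by the authors in each library on spike-in-scaled coverage. IgG libraries were not used here.

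Genes with a mean of at least 10 were fitted with limma 3.58.1 (R 4.3.3, with trend) on log2(value + 1), and H3K27ac on log2 of summed signal, in genes with a peak in all 4 libraries. p-values were adjusted by Benjamini-Hochberg over all tested genes. edgeR 4.0.16 and DESeq2 1.42.0 on whole reads were alternatives. Regions were made in Python 3.11.15 (overlap of at least 1 bp) and placed by GENCODE vM21 on GRCm38. Scripts were tested on simulated data. All 10 genes are named, and of each list the called genes and up to 4 uncalled ones of highest mean, others being named after values were seen. The genes and lists were chosen with earlier results of these data known.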

Additional observations from a re-analysis of the deposited data

How the results depend on the processing

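*Scarb1* and *Hsd17b1* stayed called in RNA in all 8 alternatives with 4 libraries and *Fdxr* in 6, and in 4 and 2 of the 4 with 1 library left out, where the lone sample is assumed to vary like the other group (also for H3K27ac), so 2 or 3 of the genes were called. *Fdxr* lost its call with no filter on low values (adjusted p = 0.0744), with DESeq2 (0.22), without GDF9 replicate 2 and without vehicle replicate 1. Genes called in RNA numbered 396, against 187 with no filter on low values (161 up, 26 down), 128 with DESeq2 (112 up, 16 down) and 215 to 583 with 1 library left out, of which 215 was without vehicle replicate 1. With a replicate block, 535 genes were called in RNA and the same 3 of the 9 genes, and 0 genes were called for H3K27ac in either line. Across genes, replicate 1 deviations of the treatments were hardly correlated (0.005 in RNA, -0.0083 and -0.027 in H3K27ac). Such a correlation cannot show a shift shared by all genes of a replicate. For H3K27ac in Smad3 PA/PA cells, the median log2 ratio was 0.27 without GDF9 replicate 1 and -0.35 without GDF9 replicate 2. There the block raised the genes at unadjusted limma p under 0.05 from 171 to 465. With 1 library left out, uncalled log2 differences ran from -0.036 to 0.017 for *Hsd3b1*, -0.15 to -0.06 for *Fdx1* (adjusted p = 0.035 with the block), 0.025 to 0.079 for *Star*, 0.029 to 0.053 for *Cyp11a1*, 0.025 to 0.073 for *Por* and -0.14 to -0.053 for *Hsd17b7*. The causes were not tested.

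H3K27ac calls rest on all 4 libraries. In Smad2 HA/+ cells, 169 genes (16 up, 153 down) became 71 when centred on the median, and 0 with any 1 library left out (1114 to 1360 at unadjusted p under 0.05). In Smad3 PA/PA cells, 4 became 2 when centred and 0 to 5 with 1 library left out. With measures added after seeing the data, Smad2 HA/+ cells gave 39 genes by maximum signal and 0 by mean signal per base, and Smad3 PA/PA cells 0 by either. None of the 9 genes was called under any of these, and signs of their uncalled ratios changed in 43 of 162 cases. In Smad3 PA/PA cells, ratios by maximum signal were 0.33 for *Star*, 0.28 for *Cyp11a1*, 0.16 for *Hsd3b1*, 0.19 for *Fdxr* and 0.42 for *Hsd17b7*. Per base they were 0.019 for *Star*, 0.10 for *Hsd17b1*, 0.11 for *Hsd3b1*, 0.057 for *Scarb1*, 0.026 for *Fdx1*, 0.096 for *Fdxr* and 0.32 for *Hsd17b7*, which was 0.023 when centred. With 1 library left out they ran from -0.76 to 0.071 (*Cyp11a1*), -0.47 to 0.12 (*Hsd17b1*), -0.37 to 0.21 (*Hsd3b1*), -0.59 to 0.38 (*Scarb1*), -0.45 to 0.33 (*Fdx1*), -0.85 to 0.060 (*Fdxr*), -0.74 to 0.68 (*Hsd17b7*) and -0.56 to 0.048 (*Por*). In Smad2 HA/+ cells, centred ratios were 0.17 for *Star*, 0.20 for *Scarb1* and 0.034 for *Hsd17b7*. By maximum signal they were 0.15 for *Star* and *Scarb1*, -0.082 for *Hsd17b1* and 0.10 for *Hsd17b7*, and per base -0.033 for *Hsd17b1*, 0.20 for *Scarb1* and 0.012 for *Hsd17b7*. With 1 library left out they ran from -0.12 to 0.045 (*Star*), -0.045 to 0.054 (*Hsd17b1*), -0.13 to 0.12 (*Scarb1*), -5.6e-05 to 0.31 (*Fdx1*) and -0.0013 to 0.066 (*Por*).

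In Smad2 HA/+ cells and for H3K27ac in both lines, numbers of genes with a region stayed within 1.5 times of those given. In Smad3 PA/PA cells, 1 replicate at a time gave 5 to 6 genes for PA with GDF9, 7 to 8 with vehicle, 9 to 10 for SMAD2 with GDF9, 5 to 10 with vehicle, 9 for SMAD4 with GDF9 and 9 to 10 with vehicle. Counting 20 kb from start sites gave 1 for PA with vehicle and 3 for SMAD2 with GDF9. Where 50% of both peaks had to be shared, 1 was left for PA with vehicle and 1 for SMAD4 with GDF9. Within 3 kb of a start, a window added after seeing the data, there were 0 for PA with vehicle, 2 for SMAD2 with GDF9 and 1 for SMAD4 with vehicle. Peaks of 3 to 5 fragments limit what Smad3 PA/PA cells can show.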
